A study of Mus musculus with 60 samples.

Results

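Cholesterol genes were followed in the cortex of mice that were kept awake, mice that were then allowed to sleep, and mice left undisturbed. The list holds 31 genes in 3 roles, namely 18 enzymes that make cholesterol, 5 genes that sense sterols and drive the pathway, and 8 genes that move, export or break down cholesterol. A gene entered the results through the probeset (a set of probes for 1 transcript) with the highest mean among those that carried its symbol alone and lay over a log2 value of 4 on more than 50% of the arrays. This left 28 of the 31 genes, that is 16 enzymes, all 5 sensing genes and 7 transport genes, among 18386 genes and 32819 probesets measured in all. The enzymes Acat2 and Idi1 and the esterification enzyme Soat1 were not analysed here, as the annotation used names no probeset for Acat2 or Soat1 alone and gives the probeset of Idi1 several genes.

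RNA from the left cortical hemisphere of 59 male C57BL/6J mice, aged 2 months, was measured on 1 Affymetrix Mouse Gene 2.1 ST array per mouse, and all mice had been handled on 6 days beforehand. The 7 mice of the SD group were sleep-deprived with a soft brush for 6 h after lights on (ZT0) and were dissected at ZT6. Sleep was not recorded by EEG in these mice. The paper lists as a limit that responses to sleep pressure and to stress hormones are hard to separate. In the recovery groups, 6 h of sleep deprivation was followed by 2 h in which sleep was allowed (RS2, 4 mice, ZT8), or 5 h of it by 3 h (RS3, 7 mice, ZT8) or 6 h (RS6, 7 mice, ZT11). Undisturbed groups are named by their zeitgeber hour, with 7 mice each in CC0, CC6, CC8 and CC11 and 6 in CC7. SD was compared with CC6, RS2 and RS3 with the same CC8 mice, and RS6 with CC11. Levels below are log2 intensities after RMA, the authors' normalization. Fold changes are differences on the log2 scale from a limma model of these values with the 9 groups and 6 factors of unwanted variation (RUV) as terms, so they need not equal the difference of the mean levels. A gene counts as changed at a Benjamini-Hochberg adjusted p under 0.01, taken over all 32819 probesets. Shares of all probesets called hold for this threshold only. Counts at an unadjusted p under 0.05 have no such share beside them and cannot show an excess.

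Cholesterol does not cross the blood-brain barrier in useful amounts, so the brain makes its own. The pathway runs from acetyl-CoA through mevalonate and farnesyl diphosphate to squalene and on through a series of sterols, and in the adult brain astrocytes and oligodendrocytes carry much of it. When sterols in the endoplasmic reticulum are low, SCAP escorts the transcription factors SREBP1 and SREBP2 to the Golgi, where they are cut and released to switch on the enzyme genes. INSIG proteins hold SCAP back when sterols are high, and Insig1 is itself a target of the SREBPs.

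The 300 bases around the transcription start (250 before and 50 after, RefSeq, build GRCm38.p6) were given for 22 of the 28 genes. They are printed for Insig1 and Msmo1, which fell with sleep deprivation, and for Hmgcs1. Hmgcs1 was the 1 of these 22 with an exact match to TCACNCCAC, a core of the sterol regulatory element that SREBPs bind. Variants of this core were not searched, so a member without a match may still hold one. Sqle, which also fell, and Fdps, Fdft1, Abcg1, Npc1 and Stard4 were not searched. Capitals mark this core (TCACNCCAC), the E-box CACGTG and the NF-Y box CCAAT on either strand.

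Insig1, chr5:28071162-28071461, + strand: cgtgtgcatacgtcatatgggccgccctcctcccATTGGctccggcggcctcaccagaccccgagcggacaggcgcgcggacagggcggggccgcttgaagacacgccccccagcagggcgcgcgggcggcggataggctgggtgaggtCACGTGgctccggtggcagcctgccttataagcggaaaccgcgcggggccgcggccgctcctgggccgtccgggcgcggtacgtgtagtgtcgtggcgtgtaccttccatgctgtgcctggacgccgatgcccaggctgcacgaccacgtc

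Msmo1, chr8:64733529-64733828, - strand: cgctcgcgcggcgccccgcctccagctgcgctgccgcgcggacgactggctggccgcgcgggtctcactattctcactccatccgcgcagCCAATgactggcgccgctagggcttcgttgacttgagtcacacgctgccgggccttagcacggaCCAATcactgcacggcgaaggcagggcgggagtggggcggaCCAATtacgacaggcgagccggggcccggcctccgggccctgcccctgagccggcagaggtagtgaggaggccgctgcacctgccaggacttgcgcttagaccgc

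Hmgcs1, chr13:119690101-119690400, + strand: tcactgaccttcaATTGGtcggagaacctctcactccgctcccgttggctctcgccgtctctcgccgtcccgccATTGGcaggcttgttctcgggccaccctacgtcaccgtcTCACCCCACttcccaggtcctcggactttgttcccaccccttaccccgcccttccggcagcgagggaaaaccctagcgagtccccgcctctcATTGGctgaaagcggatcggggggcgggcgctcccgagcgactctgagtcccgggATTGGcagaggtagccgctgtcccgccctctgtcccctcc

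The core in Hmgcs1, the cytosolic synthase that condenses acetyl-CoA units ahead of mevalonate, reads TCACCCCAC. It was found in 1 of 22 members, against 1.24% of all promoters of this length. The NF-Y box was found in 19 of 22 members and in 13 of the 13 enzymes with a promoter, against 41.1% of all genes and 37.4% of all promoters. The Sp1 box GGGCGG was found in 20 of 22 members, against 38.2% of all genes and 35.7% of all promoters. An E-box stood in 6 members (Insig1, Abca1, Dhcr7, Hsd17b7, Sc5d and Scap), against 8.09% of all genes and 7.15% of all promoters. The LXR direct repeat was found in no member and in 0.0152% of all promoters. All motifs were searched on both strands, each on its own, and several members have more than 1 promoter in the table. The background holds 27025 genes, more than the 18386 measured here. It was not matched to the members for expression or base content, so these shares cannot show an excess particular to the members. These matches describe letters in this window and not bound sites.

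On the first principal component of the RMA values, which carried 26.9% of the variance, 5 arrays stood apart from the other 54: replicates 1 and 2 of SD and replicate 1 of CC0, CC8 and RS6. The mean level of the excitatory neuron list (6 of 7 genes measured) lay between 9.21 and 9.63 over the 59 arrays and that of the oligodendrocyte list (11 of 12 measured) between 9.07 and 9.64. Genes of the striatum, which lies under the dissected cortex, ranged more widely, from a mean level of 7.82 to 9.68. In bulk tissue, fewer cells of a type and less RNA per cell cannot be told apart. The number of mice limits the precision, and RS2 had the fewest.

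Insig1, Sqle and Msmo1 were lower in sleep-deprived mice than in undisturbed mice of the same time of day. Insig1 encodes the sterol-dependent anchor of SCAP, Sqle the epoxidase that oxidizes squalene, and Msmo1 the methyl sterol oxidase that removes methyl groups after the ring is closed. These 3 of 28 members fell at an FDR under 0.01 (limma), and no member rose. Of all probesets, 0.844% fell and 1.09% rose.

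Insig1 lay between 9.27 and 9.75 in SD (median 9.68), against 9.83 to 10.13 in CC6 (median 10.01). Every SD mouse was below every CC6 mouse, and SD replicates 1 and 2 were the lowest at 9.27 and 9.35. The fold change after RUV was -0.29 ± 0.05 (SE; adjusted p = 0.00052, limma), which is 18.0% lower. Msmo1 lay between 8.29 and 8.87 in SD (median 8.77), against 8.88 to 9.14 in CC6 (median 9.03). The groups were parted only narrowly (highest SD mouse 8.871, lowest CC6 mouse 8.876), and SD replicates 1 and 2 were again the lowest at 8.29 and 8.54. The fold change was -0.22 ± 0.05 (SE; adjusted p = 0.0041, limma), which is 14.1% lower. Sqle lay between 8.99 and 9.36 in SD (median 9.06), against 9.21 to 9.50 in CC6 (median 9.31). The groups overlapped through 1 mouse, SD replicate 1, which was the highest of the SD mice. The fold change was -0.27 ± 0.04 (SE; adjusted p = 4.3e-05, limma), which is 16.9% lower. With the RUV factors taken out of the levels, SD and CC6 overlapped for Msmo1 (highest SD 8.876, lowest CC6 8.866). They did not for Insig1 (9.785 and 9.835) or Sqle (9.165 and 9.293).

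Insig1 and Msmo1 were the 2 of 28 members whose RMA values did not overlap between SD and CC6 in this direction, against 0.698% of all probesets. Without the 5 arrays that stood apart, all 3 genes still fell, with fold changes of -0.26 for Insig1 (adjusted p = 0.0017), -0.25 for Sqle (adjusted p = 0.00019) and -0.20 for Msmo1 (adjusted p = 0.0077). Without RUV, Insig1, Msmo1 and the sterol carrier Stard4 passed the threshold, and 0.545% of all probesets fell. Sqle then had a fold change of -0.22 and an adjusted p of 0.019. In a fit of SD and CC6 alone without RUV, none of the 3 passed (adjusted p between 0.081 and 0.20).

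**Figure D1:**
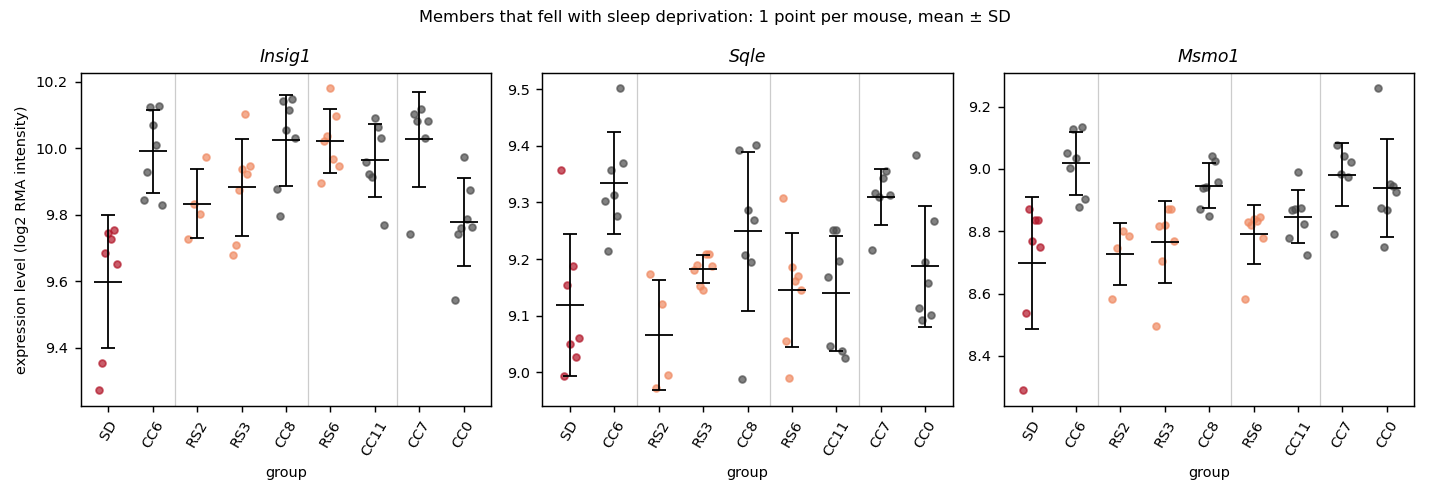
Expression level (log2 RMA intensity) of Insig1, Sqle and Msmo1, with 1 point per mouse and the mean ± SD of each group in black, for SD, its control CC6, the recovery groups with their controls CC8 and CC11, and the other undisturbed groups CC7 and CC0. The SD mice lie below all CC6 mice for Insig1 (at most 9.75 against at least 9.83) and Msmo1 (at most 8.87 against at least 8.88), and RS6 lies among the CC11 mice for Insig1 (means 10.02 and 9.96).

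Some markers of oligodendrocytes moved in the same comparison. Opalin (fold change -0.51) and Aspa (-0.33) fell, which were 2 of 11 measured markers, while the median fold change of the 11 was -0.03. The mean level of the list lay between 9.07 and 9.53 in SD (median 9.38), against 9.48 to 9.57 in CC6 (median 9.53). With this mean as a covariate, Insig1 had a fold change of -0.23 (adjusted p = 0.0099), Sqle of -0.27 (adjusted p = 0.00018) and Msmo1 of -0.18 (adjusted p = 0.039), so that the call for Msmo1 was lost. Of 10 measured microglial genes Ly86 (-0.31) and P2ry12 (-0.29) also fell past the threshold. Of 9 measured endothelial genes Itm2a (-0.35) fell and the glucose transporter gene Slc2a1 (+0.23) rose, and of 10 measured astrocyte genes Gjb6 (+0.37) rose. The mean levels of these lists overlapped between SD and CC6. Their medians were 8.11 and 8.15 for microglia, 8.28 and 8.32 for endothelium and 9.59 and 9.49 for astrocytes. Without RUV, Opalin, P2ry12 and Itm2a still passed, while Aspa, Ly86, Slc2a1 and Gjb6 did not. Gjb6 was then at +0.15 (adjusted p = 0.51, limma). Striatal genes had a median fold change of -0.28 with 0 of 7 past the threshold (limma; 1 at an unadjusted p under 0.05), and with their mean as a covariate all 3 members still fell.

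Of the other enzymes none passed the threshold, and most fold changes were below 0. Hmgcs1 had levels between 10.60 and 11.27 in SD (median 11.10), against 11.12 to 11.47 in CC6 (median 11.35). Its fold change was -0.12 (adjusted p = 0.074). Fdps, which makes farnesyl diphosphate, lay between 7.66 and 8.53 in SD (median 7.88), against 7.85 to 8.24 in CC6 (median 8.01), with a fold change of -0.17 (adjusted p = 0.088). Lss, which closes the sterol ring, lay between 7.53 and 7.83 in SD (median 7.75), against 7.67 to 8.14 in CC6 (median 7.89), with a fold change of -0.17 (adjusted p = 0.32). In these 3 genes the SD medians were lower, but the groups overlapped.

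The remaining early enzymes (Mvk, Pmvk and Mvd of the mevalonate branch and Fdft1, the squalene synthase) had fold changes between -0.11 and -0.05. The remaining late enzymes Cyp51, Tm7sf2, Nsdhl, Sc5d and Dhcr7 lay between -0.12 and -0.03. Only Hsd17b7 (+0.07, adjusted p = 0.64) and the sterol isomerase Ebp (+0.14, adjusted p = 0.36) lay above 0. The 16 enzymes had a median fold change of -0.10 with 14 below 0, against a median of 0.00083 and 49.7% below 0 over all probesets. Without RUV the median was -0.03 with 10 of 16 below 0, so the size of this shift rests on the factors.

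The sensing genes other than Insig1 stayed closer to their controls. Insig2, the second anchor of SCAP, had a fold change of -0.01 (adjusted p = 0.96), Srebf1 of -0.01 (adjusted p = 0.95) and Scap of +0.01 (adjusted p = 0.95). Srebf2, which encodes the SREBP most tied to cholesterol synthesis, was between 10.03 and 10.62 in SD (median 10.19), against 9.90 to 10.16 in CC6 (median 10.06). The SD range reached higher, and the fold change was +0.11 (adjusted p = 0.28). The highest SD value came from an array that stood apart (SD replicate 1 or 2). Insig1 and Srebf2 thus lay on opposite sides of 0, and only Insig1 passed. The median over the 5 sensing genes was -0.01 after RUV and +0.16 without RUV.

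Among the transport genes, the sterol carrier Stard4 came closest to the threshold. Its level lay between 6.59 and 7.23 in SD (median 6.96), against 7.20 to 7.46 in CC6 (median 7.28). The SD median lay below the lowest CC6 mouse, but the ranges met. The fold change was -0.21 ± 0.05 (SE; adjusted p = 0.015, limma), and without RUV it was -0.32 (adjusted p = 0.0069). The exporters Abca1 (-0.04) and Abcg1 (+0.08), the neuronal cholesterol hydroxylase Cyp46a1 (-0.08), the lysosomal proteins Npc1 (-0.06) and Npc2 (-0.09) and the lipoprotein Apoe (-0.01) had adjusted p-values between 0.34 and 0.94. A second probeset of Npc1 lay on the other side of 0 (+0.13, adjusted p = 0.54). The median of the 7 transport genes was -0.06 after RUV and +0.01 without RUV.

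**Figure D2:**
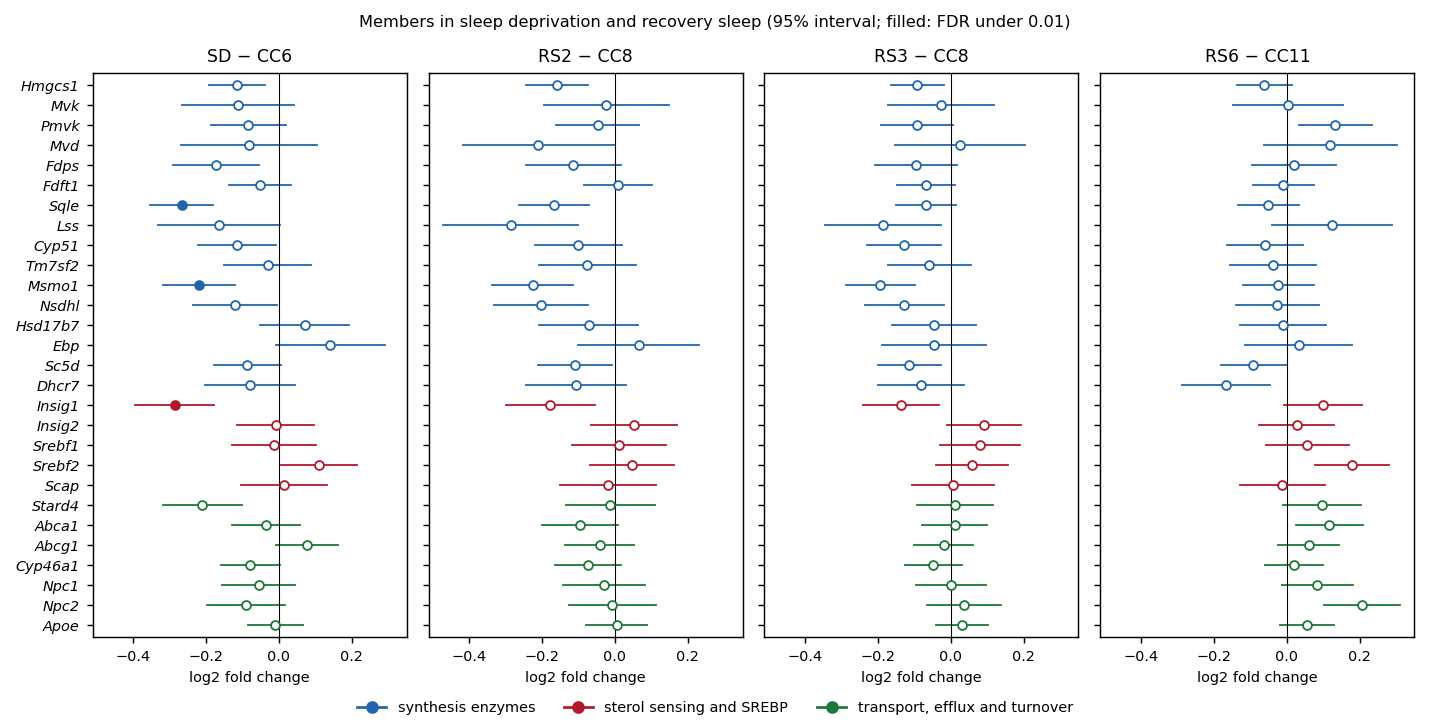
Log2 fold change of each of the 28 members (circles) with its 95% interval (lines) in 4 comparisons with time-matched controls, coloured by role, where filled circles are at an FDR under 0.01. Sqle, Msmo1 and Insig1 are the filled circles, all in SD minus CC6, and the 7 transport genes all lie above 0 in RS6 minus CC11.

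After recovery sleep no member differed from its controls at an FDR under 0.01. This was so for RS2 minus CC8 (0 of 28, with 8 at an unadjusted p under 0.05, and 0.299% of all probesets called), RS3 minus CC8 (0 of 28, with 7 at an unadjusted p under 0.05, and 0.171% called) and RS6 minus CC11 (0 of 28, with 6 at an unadjusted p under 0.05, and 0.149% called). The shares called hold for an FDR under 0.01 and give no measure for the counts at an unadjusted p. limma without RUV also called 0 members in these comparisons. In RS2 minus CC8, 98 probesets were called in all, against 34, 25 and 62 without RS2 replicate 1, 2 and 3, and 0 members in each case. The number of probesets called without RS2 replicate 4 is not reported here.

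In RS2, the enzymes stayed on the low side. Msmo1 was at 8.58, 8.74, 8.80 and 8.79 in the 4 RS2 mice, against 8.85 to 9.04 in CC8 (median 8.94). Lss was at 7.51, 7.84, 7.82 and 7.73 in RS2, against 7.85 to 8.27 in CC8 (median 7.98). Nsdhl, a dehydrogenase that acts beside Msmo1, was at 8.69, 8.69, 8.69 and 8.72 in RS2, against 8.78 to 9.03 in CC8 (median 8.92). All 4 RS2 mice were below all CC8 mice for these 3 genes, against 0.399% of all probesets with this order. The fold changes were -0.23 for Msmo1 (adjusted p = 0.033), -0.29 for Lss (adjusted p = 0.17) and -0.20 for Nsdhl (adjusted p = 0.14). The 16 enzymes had a median fold change of -0.11 with 14 below 0, against a median of 0.0056 and 48.0% below 0 over all probesets. Without RUV their median was -0.12 with 15 of 16 below 0.

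Insig1 was at 9.73, 9.83, 9.80 and 9.97 in RS2, against 9.80 to 10.15 in CC8 (median 10.05). Sqle was at 9.17, 8.97, 9.12 and 8.995 in RS2, against 8.99 to 9.40 in CC8 (median 9.27). Both genes overlapped with CC8, with fold changes of -0.18 for Insig1 (adjusted p = 0.20) and -0.17 for Sqle (adjusted p = 0.092). Stard4 had a fold change of -0.01 (adjusted p = 0.97), and the 7 transport genes lay between -0.10 and 0.0048. Striatal genes had a median fold change of -0.54 in RS2 with 0 of 7 past the threshold (limma; 4 at an unadjusted p under 0.05), their mean lay between 7.82 and 8.88 in RS2 and 8.30 and 9.46 in CC8. With this mean as a covariate, Msmo1 was at -0.20 (adjusted p = 0.10). Of 9 measured endothelial genes Itm2a fell (-0.36), and of 6 measured inhibitory neuron genes Vip rose (+0.30) in RS2. Neither gene passed without RUV (adjusted p = 0.74 for both, limma). Oligodendrocyte markers had a median fold change of -0.08 in RS2, with 10 of 11 below 0, and microglial markers of -0.10, with 9 of 10 below 0 (0 past the threshold in either list, limma; 2 and 3 at an unadjusted p under 0.05). The oligodendrocyte mean lay between 9.32 and 9.56 in RS2 and 9.36 and 9.64 in CC8, and with it as a covariate the enzyme median was -0.09 and Msmo1 was at -0.19 (adjusted p = 0.15).

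In RS3, Msmo1 lay between 8.50 and 8.87 (median 8.82), against 8.85 to 9.04 in CC8 (median 8.94), with a fold change of -0.19 (adjusted p = 0.033). Insig1 lay between 9.68 and 10.10 in RS3 (median 9.92), against 9.80 to 10.15 in CC8 (median 10.05), with a fold change of -0.14 (adjusted p = 0.24). Sqle lay between 9.15 and 9.21 in RS3 (median 9.19), against 8.99 to 9.40 in CC8 (median 9.27), with a fold change of -0.07 (adjusted p = 0.54). For Msmo1, 5 of the 7 RS3 mice lay below every CC8 mouse, while for Sqle all 7 lay inside the CC8 range. The 16 enzymes had a median fold change of -0.09 with 15 below 0, while the sensing genes had a median of +0.06 and the transport genes of +0.01. All 11 oligodendrocyte markers were below 0 as well, with a median fold change of -0.07 (0 past the threshold, limma; 3 at an unadjusted p under 0.05) and a mean level between 9.37 and 9.57 in RS3 and 9.36 and 9.64 in CC8. With this mean as a covariate, the enzyme median was -0.07 and Msmo1 was at -0.16 (adjusted p = 0.16). RS2 and RS3 share their control mice and are therefore not independent of each other.

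In RS6 the enzymes lay near their controls, with a median fold change of -0.02 and 10 of 16 below 0. Insig1 lay between 9.89 and 10.18 in RS6 (median 10.02), against 9.77 to 10.09 in CC11 (median 9.96), with a fold change of +0.10 (adjusted p = 0.40). Msmo1 had a fold change of -0.02 (adjusted p = 0.89) and Sqle of -0.05 (adjusted p = 0.64). All 7 transport genes had fold changes above 0, between 0.02 and 0.21, with a median of +0.08 against 0.0075 over all probesets, and all 7 were above 0 without RUV as well (median +0.11). Astrocyte markers had a median fold change of +0.10 in the same comparison, with 7 of 10 above 0, and endothelial markers of +0.08, with 7 of 9 above 0 (0 past the threshold in either list, limma; 4 and 3 at an unadjusted p under 0.05). Their mean levels lay between 9.41 and 9.60 in RS6 and 9.38 and 9.49 in CC11 for astrocytes, and between 8.19 and 8.40 in RS6 and 8.14 and 8.34 in CC11 for endothelium, and their part in the transport values was not tested. The second probeset of Npc1 was at -0.12 (adjusted p = 0.59). Npc2, which hands cholesterol to Npc1 in the lysosome, lay between 7.95 and 8.55 in RS6 (median 8.06), against 7.72 to 7.96 in CC11 (median 7.89), with a fold change of +0.21 (adjusted p = 0.036). The overlap was narrow, and RS6 replicate 1, one of the arrays that stood apart, was the highest. Srebf2 lay between 9.97 and 10.15 in RS6 (median 10.01), against 9.58 to 10.03 in CC11 (median 9.80), with a fold change of +0.18 (adjusted p = 0.062). Striatal genes had a median fold change of -0.43 in RS6 with 0 of 7 past the threshold (limma; 5 at an unadjusted p under 0.05), and their mean lay between 8.00 and 9.60 in RS6 and 8.63 and 9.46 in CC11. With this mean as a covariate, Npc2 was at +0.23 (adjusted p = 0.030), and without the 5 arrays that stood apart at +0.17 (adjusted p = 0.10).

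**Figure D3:**
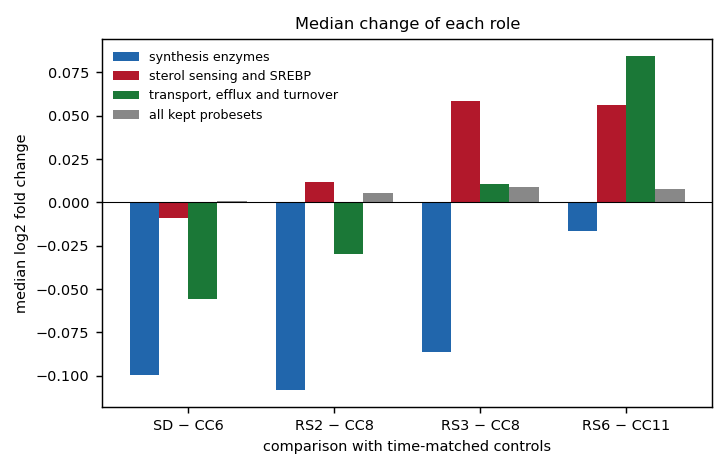
Median log2 fold change (vertical axis) of the 16 synthesis enzymes, 5 sterol sensing genes and 7 transport genes, beside the median of all kept probesets, in SD minus CC6, RS2 minus CC8, RS3 minus CC8 and RS6 minus CC11. The enzyme median is -0.10 in SD, -0.11 in RS2, -0.09 in RS3 and -0.02 in RS6, and the transport median is highest in RS6 (0.08).

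Whether an effect after recovery differed from the effect of sleep deprivation was tested as a difference of the 2 fold changes. For Insig1, the RS6 effect minus the SD effect was +0.39 ± 0.07 (SE; adjusted p = 0.0011, limma), the only member of 28 past the threshold, with 1.03% of all probesets called. A single member cannot show an excess over this share. Without RUV this difference was +0.45 (adjusted p = 0.031). Stard4 (+0.31, adjusted p = 0.012), Npc2 (+0.30, adjusted p = 0.014) and Sqle (+0.22, adjusted p = 0.029) did not pass, and for Msmo1 the difference was +0.20 (adjusted p = 0.11). Opalin, the oligodendrocyte gene that fell in SD, had a difference of +0.48 in the same direction. Without RUV its difference was +0.49 (adjusted p = 0.044, limma). With the oligodendrocyte mean as a covariate, the difference for Insig1 was +0.34 (adjusted p = 0.0036). SD mice had 6 h and RS6 mice 5 h of sleep deprivation, so recovery and this difference in length cannot be told apart.

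For RS2 and RS3 no member passed this test. The RS2 effect minus the SD effect had 0 of 28 members past the threshold (limma; 1 at an unadjusted p under 0.05), with 0.0518% of all probesets called, and the RS3 effect minus the SD effect 0 of 28 (limma; 2 at an unadjusted p under 0.05), with 0.207% called. The differences for Insig1 were +0.11 for RS2 (adjusted p = 0.80) and +0.15 for RS3 (adjusted p = 0.52). For Msmo1 they were -0.01 for RS2 (adjusted p = 0.99) and +0.03 for RS3 (adjusted p = 0.95). RS3 mice had 5 h of sleep deprivation and SD mice 6 h, so for RS3 too recovery and this length cannot be told apart.

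Among undisturbed mice, other members passed the threshold by time of day, 1 in each comparison that had a call. Pmvk, which adds the second phosphate to mevalonate, was lower in CC11 than in CC6, and Srebf2 was lower in CC11 than in CC0. Pmvk lay between 8.27 and 8.56 in CC11 (median 8.48), against 8.54 to 8.87 in CC6 (median 8.76). The ranges met at their edges, and the fold change was -0.27 ± 0.05 (SE; adjusted p = 0.0022, limma), the only call among 28 members for CC11 minus CC6, with 0.265% of all probesets called. Pmvk was also the 1 member of 28 past the threshold in an F-test over the 5 undisturbed groups (adjusted p = 0.0052, limma), with 0.896% of all probesets called. Srebf2 lay between 9.58 and 10.03 in CC11 (median 9.80), against 9.91 to 10.31 in CC0 (median 10.10). Its fold change was -0.22 ± 0.05 (SE; adjusted p = 0.0079, limma), the only call for CC11 minus CC0, with 0.975% called. A single call among 28 members cannot show an excess over these shares.

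From ZT0 onwards the mean level of Srebf2 was 10.09 ± 0.12 (SD, n = 7), 10.05 ± 0.09 (n = 7), 9.97 ± 0.09 (n = 6), 9.93 ± 0.12 (n = 7) and 9.81 ± 0.15 (n = 7) in CC0, CC6, CC7, CC8 and CC11. Sqle had means of 9.19 ± 0.11, 9.33 ± 0.09, 9.31 ± 0.05, 9.25 ± 0.14 and 9.14 ± 0.10 in the same groups. Neighbouring means of Srebf2 lay closer together than the larger of their SDs, and so did those of Sqle except for CC6 and CC0. For Sqle, CC6 minus CC0 was +0.17 (adjusted p = 0.047) and CC11 minus CC6 was -0.17 (adjusted p = 0.022), and no member passed in CC6 minus CC0 (limma; 8 of 28 at an unadjusted p under 0.05, with 0.158% of all probesets called). The SD and CC11 comparisons share the CC6 mice. Npc2 was the 1 member whose CC11 mice (7.72 to 7.96) were all below the CC6 mice (7.98 to 8.29), against 0.36% of all probesets, with a fold change of -0.20 (adjusted p = 0.036).

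Striatal genes were higher in CC11, with a median fold change of +0.58 against CC6 (0 of 7 past the threshold, limma; 6 at an unadjusted p under 0.05) and +0.50 against CC0 (0 of 7; 4 at an unadjusted p under 0.05). With their mean as a covariate, Pmvk was at -0.24 (adjusted p = 0.021) and Srebf2 at -0.20 (adjusted p = 0.035), so that both calls were lost. Both calls were also lost without RUV, where Pmvk was at -0.31 (adjusted p = 0.084) and Srebf2 at -0.28 (adjusted p = 0.015). Astrocyte markers were lower in CC11, with a median fold change of -0.11 against CC6 (9 of 10 below 0, 6 at an unadjusted p under 0.05) and of -0.11 against CC0 (10 of 10 below 0, 5 at an unadjusted p under 0.05), and 0 past the threshold in either (limma). Of 6 measured excitatory neuron genes Neurod6 (-0.34 against CC6 and -0.41 against CC0) fell in both comparisons. Of 9 measured endothelial genes Kdr (-0.39 and -0.51) and Tek (-0.48 and -0.39) fell and Slc2a1 (+0.30 and +0.39) rose in both. Against CC0 the endothelial gene Cldn5 (-0.53) and, of 6 measured oligodendrocyte precursor genes, Gpr17 (-0.39) fell too. Without RUV only Neurod6 and Cldn5 of these genes still passed, both against CC0 (limma). Tek was then at -0.27 against CC6 and -0.01 against CC0, and Kdr at -0.32 and -0.20. The list means had medians of 9.40, 9.49 and 9.52 (excitatory neuron), 8.30, 8.32 and 8.35 (endothelial) and 7.64, 7.68 and 7.72 (precursor) in CC11, CC6 and CC0. Whether these markers have a part in the values of Pmvk and Srebf2 was not tested.

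**Figure D4:**
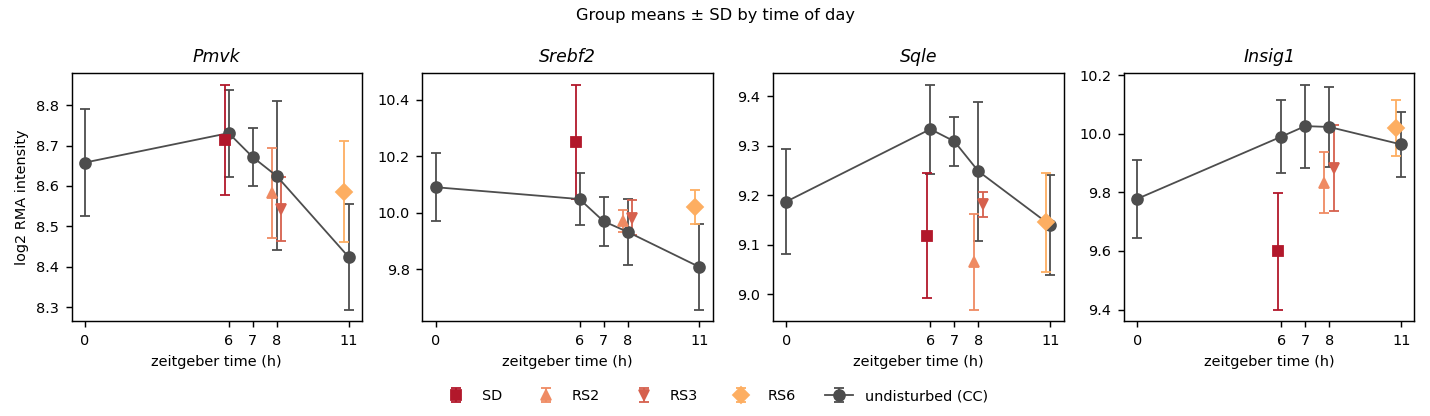
Group means ± SD (log2 RMA intensity) of Pmvk, Srebf2, Sqle and Insig1 against zeitgeber time, with SD, RS2, RS3 and RS6 as coloured symbols and the undisturbed groups joined by a line. Undisturbed Pmvk and Srebf2 are lowest at ZT11 (8.42 and 9.81), and SD lies below CC6 for Insig1 (9.60 against 9.99) and Sqle (9.12 against 9.33).

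Neighbouring branches of lipid metabolism showed no calls. For so few genes this is near the share over all probesets (0.844% lower and 1.09% higher in SD). Of 11 measured genes of fatty acid synthesis and desaturation, which are also SREBP targets, 10 of the isoprenoid branches and 11 of SREBP processing and sterol-regulated turnover, 0 passed in SD minus CC6 (limma; 3, 1 and 5 at an unadjusted p under 0.05) or in any recovery comparison. Their median fold changes in SD were -0.02, +0.02 and -0.01. Of 27 other genes of cholesterol transport, esterification, oxysterols and lipoproteins, 2 rose in SD, against 1.09% of all probesets. These were Lrp8, a receptor for apolipoprotein E and reelin (+0.33, adjusted p = 7.3e-06), and Lcat, which esterifies cholesterol on lipoproteins (+0.35, adjusted p = 0.0010, limma). The median of the 27 was +0.03. Without RUV, Lrp8 still passed (adjusted p = 0.0046) and Lcat did not (adjusted p = 0.015, limma).

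Some members also varied together from mouse to mouse. Over the 54 arrays that did not stand apart, the deviation of each gene from its group mean was set against that of Insig1, for 27 relations. These correlations describe mice that share an array plate, a normalization and differences in RNA quality and dissection. The permutation p-values come from shuffling Insig1 within groups, which takes no account of these shared differences. They are not adjusted for the 27 relations. The strongest was Lss (Pearson's r = 0.723, Spearman's rho = 0.605, permutation p = 1e-05 and 3e-05, where 1e-05 is the smallest the permutations can give), then Hmgcs1 (r = 0.657, rho = 0.601, permutation p = 2e-05 for both) and Msmo1 (r = 0.610, rho = 0.526, permutation p = 7e-05 and 0.00026). Sc5d (r = 0.607), Dhcr7 (r = 0.593), Nsdhl (r = 0.561), Cyp51 (r = 0.477), Npc1 (r = 0.475) and Hsd17b7 (r = 0.393) followed. These 9 of 27 members, 8 of them enzymes, were above 0.376, the 95th percentile over all 32818 other probesets, whose median was 0.0193.

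Without the 2 mice farthest from the median of Insig1, r was 0.691 for Lss, 0.551 for Hmgcs1 and 0.582 for Msmo1. Sqle followed Insig1 less closely (r = 0.322, rho = 0.216, permutation p = 0.028 and 0.14), although both fell with sleep deprivation, and without those 2 mice its r was 0.154. Pmvk (r = -0.212), Cyp46a1 (r = -0.273), Apoe (r = -0.211) and Scap (r = -0.03) lay below 0. Over all 59 arrays the 95th percentile was 0.550, and Hmgcs1 (r = 0.769), Lss (r = 0.747), Nsdhl (r = 0.702), Hsd17b7 (r = 0.574) and Msmo1 (r = 0.552) lay above it. There r was 0.204 for Dhcr7 and -0.03 for Sqle. Srebf2 (r = -0.233), Fdps (-0.340), Mvd (-0.342), Mvk (-0.229), Abcg1 (-0.292), Srebf1 (-0.398), Npc2 (-0.234) and Tm7sf2 (-0.099) lay below 0 over all 59 arrays. Over the 54 arrays these genes had r between 0.0609 and 0.338. The values of all these genes, Dhcr7 and Sqle included, rest on leaving out the 5 arrays.

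**Figure D5:**
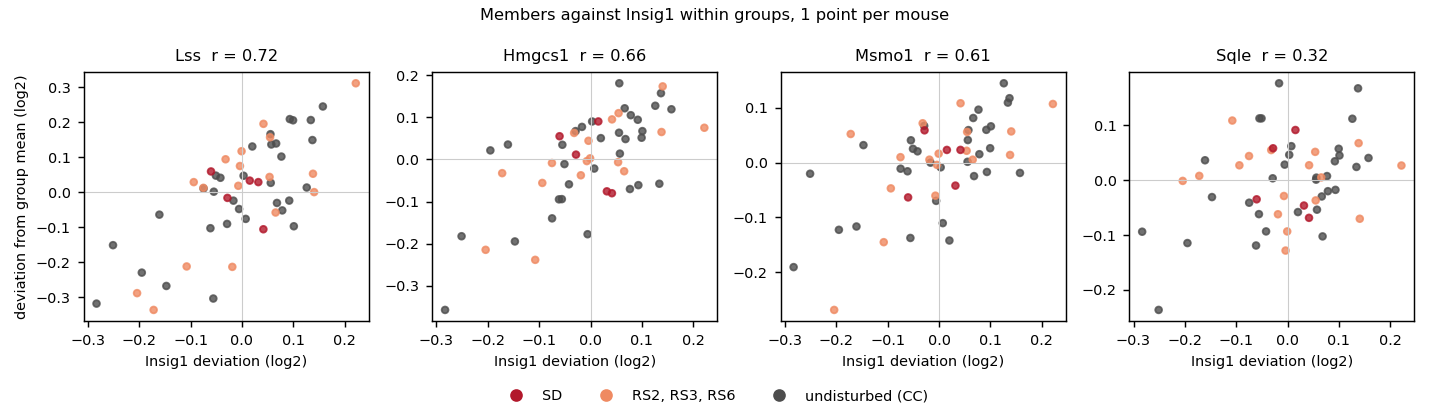
Deviation from the group mean (log2) of Lss, Hmgcs1, Msmo1 and Sqle against that of Insig1 in 54 mice, coloured by SD, recovery groups and undisturbed groups. Points for Lss, Hmgcs1 and Msmo1 run upward (r = 0.72, 0.66 and 0.61), while those for Sqle scatter more widely (r = 0.32).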

How the data were processed

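The authors deposited a log2 intensity for each probeset of 60 arrays, made by RMA (background correction, quantile normalization and summary of the probes). Per the study's methods, log RMA values went into RUVSeq and then limma, and whether the deposited values precede RUV is not given in the sources used here. The array with conflicting recovery times in its labels was left out. Probesets over a log2 value of 4 on more than 50% of the 59 arrays were kept (32819 of 41345). RUVs was written out in R 4.3.3 with 6 factors, taking every kept probeset as a control and each of the 9 groups as a replicate set, and limma 3.58.1 was fitted once with groups and factors as terms (Benjamini-Hochberg, FDR under 0.01). The fit was tested on simulated data. Correlations used scipy 1.17.1 with 100000 permutations. The members and lists were chosen with earlier results of these data known, and the rule was to name every member and each gene of the other lists past the threshold in SD or recovery. Some genes of the pathway are not reported here. Replicates are separate mice. Other settings tried were the filter, the number and use of factors, normalization, array weights, trend, a replicate block, marker covariates, fewer groups or arrays, and the threshold.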

Additional observations from a re-analysis of the deposited data

Results flagged for a closer look

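In 31 of 252 groups of arrays, 1 for each member and group, 1 mouse lay apart from the rest of its group by Dixon's criterion, where chance gives about 1 in 20. Of the 31, 17 lay on the 5 arrays that stood apart on the first principal component. All values are log2 RMA levels.

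RS6 replicate 1 was low for Hmgcs1 (10.77) and Msmo1 (8.58) and high for Pmvk (8.86), Srebf2 (10.15), Cyp46a1 (10.51), Npc2 (8.55) and Apoe (8.47). CC0 replicate 1 was low for Fdft1 (9.77) and Hsd17b7 (7.43) and high for Tm7sf2 (7.86), Msmo1 (9.26) and Abcg1 (9.19). SD replicate 1 was high for Tm7sf2 (8.09), Abcg1 (9.31) and Npc2 (8.50). CC8 replicate 1 was high for Fdps (8.14) and Cyp46a1 (10.52).

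CC7 replicate 1, which did not stand apart on that component, was low for Sqle (9.22), Msmo1 (8.79) and Insig1 (9.74) and high for Scap (9.20). CC11 replicate 7 was low for Stard4 (6.85) and high for Abca1 (7.94), and CC11 replicate 4 was high for Insig2 (8.14). CC6 mice were apart for Mvk (6.30, replicate 7, low), Fdft1 (10.48, replicate 6, high) and Stard4 (7.46, replicate 5, high), and CC8 replicate 2 was low for Dhcr7 (7.54). Among the 4 RS2 mice, replicate 4 was high for Nsdhl (8.72) and low for Abcg1 (8.66), and replicate 1 was low for Abca1 (7.55).

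Insig1 is listed as well because its RS6 effect differed from its SD effect by 0.39 (limma).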

How the results depend on the processing

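Over 20 other settings Insig1 stayed past the threshold in SD in 19 (fold changes from -0.39 to -0.23), Sqle in 18 (-0.28 to -0.22) and Msmo1 in 18 (-0.32 to -0.18), and the RS6 effect minus the SD effect of Insig1 (RS6 against SD below) in 18 (0.33 to 0.45). Pmvk passed in 12 and Srebf2 in 14. None of these fold changes changed sign. Stard4 passed in SD in 7 settings. Some settings could hardly move the SD values. Leaving out an RS2 mouse reaches SD minus CC6 only through the shared fit, and averaging probesets leaves Insig1, Sqle and Msmo1 with the same 1 probeset. The numbers of members called that changed by more than 1.5 times, where the main numbers are 3 for SD minus CC6, 1 each for RS6 against SD, CC11 minus CC6, CC11 minus CC0 and the F-test over undisturbed groups, and 0 elsewhere, were as follows.

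With 3 factors, CC11 minus CC6 and the F-test had 0. With 9 factors, RS6 against SD and CC11 minus CC0 had 2 each and the F-test 0. At an FDR under 0.05, RS6 against SD had 4, CC11 minus CC0 3, CC11 minus CC6 and the F-test 5 each, and CC6 minus CC0, RS2 minus CC8, RS3 minus CC8 and RS6 minus CC11 1 each. With the factors subtracted beforehand, RS6 against SD and CC11 minus CC6 had 4 each, CC11 minus CC0 3, RS6 minus CC11 1 and the F-test 5. With array weights, CC11 minus CC0, CC11 minus CC6 and the F-test had 0. Without RUV, RS6 against SD, CC11 minus CC0, CC11 minus CC6 and the F-test had 0, and in fits of the compared groups alone SD minus CC6 had 0 too. With a filter at a log2 value of 6, RS6 against SD had 3 and CC11 minus CC0 and CC11 minus CC6 2 each. With limma's trend, CC11 minus CC0 and CC11 minus CC6 had 2 each and the F-test 3. With the striatal mean as a covariate, RS6 against SD had 2, and CC11 minus CC0 and CC11 minus CC6 0. Without a filter, CC11 minus CC0 had 0. Without the 5 arrays that stood apart, CC11 minus CC6 and the F-test had 0. Leaving out 1 RS2 mouse at a time, the F-test had 1 to 2. With the striatal mean or a second quantile normalization, the 1 member in the F-test was Npc2 in place of Pmvk. The cause was not tested.

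The labels describe repeated experiments but do not tie replicate numbers to them, so the numbers were not taken to pair mice. Deviations of same-numbered mice had a median r of 0.0554 (highest 0.654), against -0.00572 for other pairs, and 55 of 220 lay over 0.1. Replicate 1 of SD, CC0, CC8 and RS6 all stood apart on the first principal component. Whether the numbers mark the day of the experiment was not tested. With the replicate number as a block beside the factors, SD minus CC6 had 5 members (Hmgcs1 and Stard4 in addition), RS6 against SD 2, and CC11 minus CC6 and the F-test 0. In CC11 minus CC0 the call for Srebf2 was then lost (-0.16, adjusted p = 0.13, limma) and Fdft1 passed instead (+0.20, adjusted p = 0.0055). With the block in place of the factors, SD minus CC6 had 5, and CC11 minus CC6 and the F-test 0. Of 576 further values, 528 were the same in direction and side of the threshold or within the spread, 21 gained and 21 lost a call, and 6 medians shifted, among them the enzyme median in SD without RUV (-0.03) and the sensing median in RS2 without RS2 replicate 3 (-0.03 against 0.01).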
